A study of Mus musculus with 60 samples.

Results

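TRBV26 is the germline V segment that encodes the V beta 3 region of the mouse T cell receptor (TCR) beta chain, and its clonotypes were described here in donor CD4+ and CD8+ T cells before and after allogeneic hematopoietic cell transplantation (HCT). The members were the rows of the TCR beta (TCRB) clonotype tables whose V segment was called TRBV26. There were 17815 such clonotypes among 85775 in the CD4 table (20.8%) and 2415 among 82447 in the CD8 table (2.93%), which makes 20230 of 168222. The segment had been selected on its usage in these libraries, which differed between tissues and time points, so those differences are given as a description with no test, while genotype, J pairing and CDR3 (complementarity determining region 3) features were tested.

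Lethally irradiated WT BALB/c mice had received bone marrow of WT C57BL/6 donors from which T cells had been removed, together with CD90.2+ T cells of WT, STAT3ko or STAT3koPD-1ko C57BL/6 donors. In the STAT3ko donors, floxed STAT3 was removed by a Cre under the CD4 promoter, so STAT3 was lost from T cells and not from the other cells of the graft, and STAT3koPD-1ko donors lacked PD-1, an inhibitory receptor, as well. On day 6, H-2Kb+ TCRβ+ CD4+ or CD8+ donor cells were sorted from liver and gut, and each sample was pooled from 3 recipients. Each table held 15 libraries, namely 1 library before HCT from spleen per genotype and, on day 6, 2 liver and 2 gut libraries per genotype. The tables hold only TCR sequences, so no marker of the sorted CD4+ or CD8+ cells could be checked. The methods name 2 batches of 3 mice each, which the labels do not tie to replicate numbers, so a p value measures the spread between these pools only, which may be technical.

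A T cell makes its beta chain by joining 1 V, 1 D and 1 J segment, and the CDR3 that spans the joint, from a conserved cysteine of the V segment to a phenylalanine of the J segment, is the part that meets the peptide. The V segment itself supplies the surface that bacterial and viral superantigens grip when they bind MHC class II on another cell. V beta 3 is known for this: CD4+ and CD8+ cells that carry it are removed in the thymus of strains, BALB/c among them, whose germline holds certain mouse mammary tumor proviruses, whereas they mature in C57BL/6 mice.

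Some libraries stood apart or shared clonotypes, and this held within TRBV26. For a pair of libraries, each TRBV26 clonotype contributed its lower frequency, as a percentage of the TRBV26 total, and the sum was their overlap. In CD4, the overlap of the libraries labelled before HCT with liver replicate 1 was 34.1% ± 4.49 (SD, n = 3 pairs) where the genotypes matched and 7.97% ± 1.33 (n = 6 pairs) where they did not. With liver replicate 2 the values were 8.90% ± 1.97 and 9.32% ± 1.95, so the donor genotype made no visible difference there. With gut replicate 1 they were 19.3% ± 3.98 and 10.4% ± 2.00, and with gut replicate 2 7.61% ± 3.18 and 7.12% ± 3.10. In CD8 the overlap with liver replicate 1 was 42.3% ± 7.29 within a genotype and 2.46% ± 0.490 across genotypes. The libraries labelled before HCT therefore overlapped more with liver replicate 1 and gut replicate 1 of their own genotype than of the other genotypes, and with replicate 2 the overlap was of similar size within and across genotypes, so values of replicate 2 alone are added to the main CD4 comparisons with them. For gut replicate 1 in CD4, the overlap with liver replicate 1 was 33.1% ± 6.40 within and 15.6% ± 1.43 across genotypes, and that with liver replicate 2 was 32.2% (n = 3 pairs) and 18.6% ± 1.79.

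The tables list clonotypes found in at least 2 of 18 joined libraries, of which 3 were not analysed here, and give frequencies as fractions of a library's reads without counts, so the depth is unknown. Listed clonotypes held 88.4% to 97.2% of CD4 reads before HCT, 85.6% to 93.5% in liver and 81.6% to 83.6% in gut replicate 1, but 47.8% to 51.5% in gut replicate 2. Usage below is a percentage of the listed frequency. All other frequencies of single clonotypes are percentages of all reads of the library.

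The sequences that define TRBV26 rows are shown first because their CDR3 does not begin where the CDR3 of other segments does. In 17810 of 17815 CD4 rows (99.97%) and 2414 of 2415 CD8 rows (99.96%), the listed CDR3 began upstream of its last cysteine. The germline tail of Trbv26 lies on the plus strand of chromosome 6 (GRCm38, the build the labels name as mm10), at chr6:41227914-41227993, within the coding exon that GENCODE places at chr6:41227699-41227993. In RefSeq the V segment ends 80 bases earlier, and the listed CDR3 began with the next base. Capitals mark the cysteine codon, which starts at position 41227977.
TRBV26 germline tail: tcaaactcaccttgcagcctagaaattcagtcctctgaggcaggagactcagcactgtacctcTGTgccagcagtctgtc
The 63 bases before the cysteine codon encode 21 residues, and these 21 were present without a change in 17761 CD4 rows (99.7%) and 2409 CD8 rows. After the cysteine codon 14 germline bases remained to be trimmed during joining. Every CDR3 below was therefore cut to start at its last cysteine, which merged 14 rows in CD4 and 2 in CD8 with another TRBV26 row.

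From that cysteine on, the most abundant and most widely shared TRBV26 clonotypes read as follows, with the bases equal to germline TRBV26 and to the germline J segment in lower case and the bases between them, the junction, in capitals. The first 4 were listed in 12 of 12 CD4 day 6 libraries, the next 2 reached the highest frequencies in a single CD4 library, and the last was the CD8 clonotype with the highest mean among those in at least 6 day 6 libraries.
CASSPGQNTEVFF, TRBJ1-1: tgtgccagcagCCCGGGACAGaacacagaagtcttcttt
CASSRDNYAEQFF, TRBJ2-1: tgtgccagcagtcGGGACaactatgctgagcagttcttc
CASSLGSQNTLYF, TRBJ2-4: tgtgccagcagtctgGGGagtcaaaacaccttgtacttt
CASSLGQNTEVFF, TRBJ1-1: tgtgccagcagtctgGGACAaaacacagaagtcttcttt
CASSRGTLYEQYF, TRBJ2-7: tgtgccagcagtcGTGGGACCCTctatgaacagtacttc
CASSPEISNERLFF, TRBJ1-4: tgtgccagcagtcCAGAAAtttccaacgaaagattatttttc
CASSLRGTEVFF, TRBJ1-1, CD8: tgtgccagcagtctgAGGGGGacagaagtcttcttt
The tables give 1 nucleotide sequence for each amino acid CDR3. The junctions of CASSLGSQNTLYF and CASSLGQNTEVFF were 3 and 5 bases long, and those of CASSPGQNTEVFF and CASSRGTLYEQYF 10 bases each.

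The upstream start also changed what the tables could show of TRBV26. Each amino acid CDR3 occurred once per table (0 repeats among 85775 and 82447 rows), so that clonotypes of different V segments with the same CDR3 formed 1 row under 1 V name. TRBV26 rows could not be pooled in this way because of their 21 extra residues. After trimming, 6977 CD4 rows (39.2%) and 1380 CD8 rows (57.1%) held the CDR3 of a row of another segment. The bases from the cysteine on and the J segment were also identical in 734 CD4 rows of other segments, among them 191 of 2028 TRBV22 rows (9.42%) and 153 of 714 TRBV24 rows (21.4%). The 734 rows held 1.22% to 1.44% of the listed frequency before HCT, 0.972% to 1.67% in liver and 1.04% to 1.97% in gut. The share of TRBV26 reads among them was not tested.

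The D segment call was touched by the same stretch. In 38.6% of CD4 and 37.6% of CD8 TRBV26 rows the D segment was placed inside the 63 upstream bases, where no D segment can lie, and in 99.9% and 100% of those it was TRBD2. TRBD2 was called in 55.1% of CD4 TRBV26 rows with a TRBJ1 segment, against 5.37% in rows of other segments; since TRBD2 lies downstream of the TRBJ1 cluster, such a joint is not made by ordinary deletion. With the rows called inside the stretch left out, the value was 20.7%. D calls of TRBV26 rows were not used further. Upstream starts were rare elsewhere, with 419 CD4 rows of other segments, 359 of them TRBV22 and 57 TRBV28. The share of TRBV26 frequency in rows with an upstream start lay between 99.964% and 100% in gut and between 99.975% and 100% in liver in CD4, and in CD8 between 99.976% and 100% and between 99.918% and 100%, which leaves no room for a difference between tissues to be read.

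In CD4+ T cells, TRBV26 held the highest share of gut libraries and a low share before HCT. Usage before HCT was 4.45% from WT, 5.68% from STAT3ko and 4.45% from STAT3koPD-1ko donors. In liver it was 9.72%, 8.18% and 7.12% in replicate 1 and 12.4%, 8.99% and 8.15% in replicate 2, in the same order of genotypes. In gut it was 25.6%, 25.97% and 28.0% in replicate 1 and 25.6%, 24.8% and 22.6% in replicate 2. All 6 gut libraries lay above all 6 liver libraries, which in turn lay above the 3 libraries before HCT, and this held for replicate 2 alone.

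The means were 4.86% ± 0.707 (SD, n = 3) before HCT, 9.09% ± 1.83 (n = 6) in liver and 25.4% ± 1.76 (n = 6) in gut. Gut exceeded liver 2.80-fold and the libraries before HCT 5.23-fold, and liver exceeded the latter 1.87-fold. By these means TRBV26 ranked 9th of the V segments before HCT, 3rd in liver and 1st in gut. As a percentage of all reads, usage was 4.18% to 5.02% before HCT, 6.59% to 10.6% in liver, 21.4% to 22.9% in gut replicate 1 and 11.7% to 12.2% in gut replicate 2. The order of the groups was therefore the same on that scale, with a smaller gap between liver and gut replicate 2. More cells with a TRBV26 receptor and more receptor RNA per such cell cannot be told apart in these bulk libraries.

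**Figure D1:**
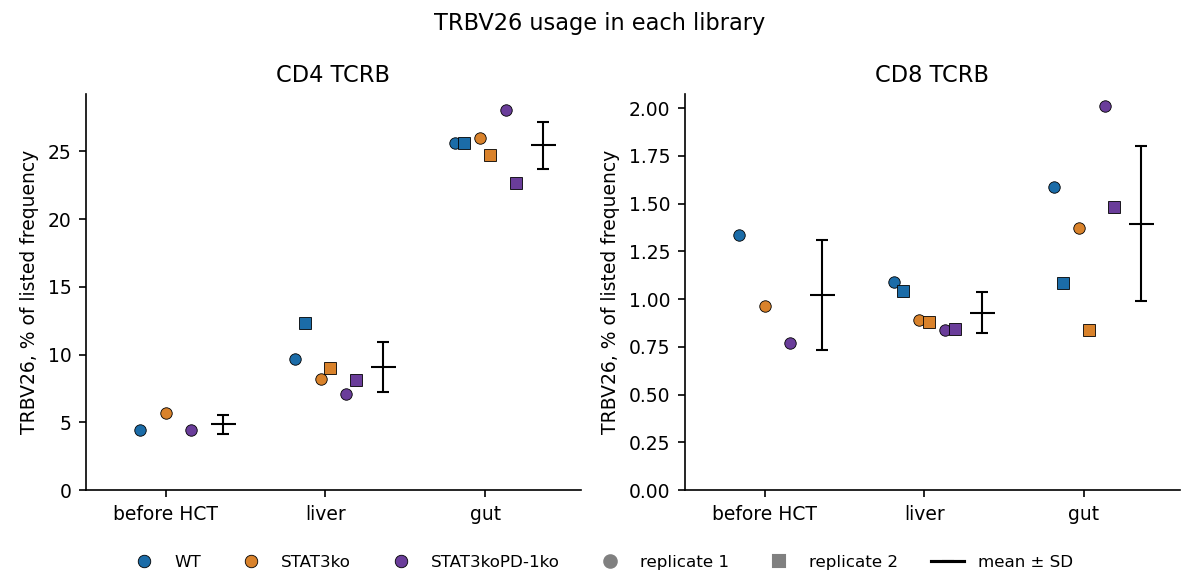
TRBV26 usage in each library (percentage of the listed frequency, linear axes that start at 0 and differ between panels) in CD4 (left) and CD8 TCRB (right), with circles for replicate 1, squares for replicate 2, colors for the donor genotype and mean ± SD beside each group. In CD4 the 6 gut libraries lie between 22.6% and 28.0%, above all liver libraries, while in CD8 all libraries lie between 0.772% and 2.01%.

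CD8+ T cells used TRBV26 little in every group. Usage was 1.34%, 0.963% and 0.772% before HCT from WT, STAT3ko and STAT3koPD-1ko donors, and ranged from 0.838% to 1.09% in liver with a median of 0.886%. In gut it was 1.59%, 1.37% and 2.01% in replicate 1 and 1.08%, 0.840% and 1.48% in replicate 2. The groups overlapped, with means of 1.02% ± 0.287, 0.930% ± 0.107 and 1.40% ± 0.407. TRBV26 ranked 17th before HCT and 16th in liver and in gut. The ratio of CD4 to CD8 usage between libraries of the same label was 3.33 to 5.90 before HCT, 8.50 to 11.9 in liver and 13.9 to 29.5 in gut, so that the ranges of the 3 groups did not overlap.

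The effect of donor STAT3 deficiency, alone or with PD-1 deficiency, on the repertoire was a question of the study, and genotype was therefore tested for TRBV26 within a fit over all V segments whose mean usage was 0.5% or more (limma on log2 of percent usage plus 0.1, tissue and genotype as terms, day 6 libraries). No genotype difference of TRBV26 passed an adjusted p of 0.05. In CD4, STAT3ko minus WT was −0.18 on the log2 scale (SE 0.14, 95% interval −0.50 to 0.13, limma adjusted p = 0.688), which is a 0.881-fold level. STAT3koPD-1ko minus STAT3ko was −0.09 (interval −0.40 to 0.22, limma adjusted p = 0.802) and STAT3koPD-1ko minus WT −0.27 (interval −0.59 to 0.04, limma adjusted p = 0.248). Of the 21 CD4 segments 0 were called in each contrast (0%), and 0, 4 and 6 had an unadjusted p below 0.05 in limma, TRBV26 not among them. In CD8 the 3 differences of TRBV26 were −0.25, 0.28 and 0.03 (SE 0.19 each), with limma adjusted p of 0.624, 0.514 and 0.878. There 0 (0%), 0 (0%) and 1 (5.56%) of 18 segments were called.

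The gut excess in CD4 was present from every genotype. The WT gut libraries exceeded the WT liver libraries 2.32-fold, those of STAT3ko donors 2.95-fold and those of STAT3koPD-1ko donors 3.32-fold, or 1.22, 1.55 and 1.71 on the log2 scale. The difference in this excess was 0.33 (SE 0.28, interval −0.28 to 0.95, limma adjusted p = 0.787) between STAT3ko and WT, 0.16 (interval −0.46 to 0.78, limma adjusted p = 0.950) between STAT3koPD-1ko and STAT3ko, and 0.49 (interval −0.12 to 1.11, limma adjusted p = 0.723) between STAT3koPD-1ko and WT. With 0 of 21 segments called in each (0%; 0, 1 and 1 at an unadjusted p below 0.05 in limma), no difference was detectable with 2 libraries per genotype and tissue.

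Usage depends on the share of clonotypes that carry TRBV26 and on their size relative to other clonotypes, and both had higher means in gut. The number of TRBV26 clonotypes itself, given below, was not higher in every gut library. TRBV26 made up 12.9% to 16.5% of the CD4 clonotypes before HCT (14.97% ± 1.88), 19.95% to 22.9% in liver (21.3% ± 1.23) and 22.9% to 30.6% in gut (27.0% ± 2.85). The 3 ranges did not overlap, although the lowest gut library, STAT3koPD-1ko replicate 2 at 22.94%, lay just above the highest liver library at 22.86%. Replicate 2 alone gave 20.5% to 22.86% in liver and 22.94% to 30.6% in gut. Because other segments were pooled by CDR3, the share was also taken over distinct trimmed CDR3s. Those carried by TRBV26 and no other listed row were 10.3% to 13.3% before HCT, 16.1% to 18.4% in liver and 20.2% to 24.3% in gut, again without overlap. Those carried by TRBV26, whether or not another segment also carried them, were 13.3% to 17.2%, 20.9% to 24.4% and 23.8% to 33.3%, and on this measure liver and gut overlapped.

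Relative clone size differed more than the share of clonotypes between gut and liver. The mean frequency of a TRBV26 clonotype, divided by that of the clonotypes of other segments in the same library, was 0.255 to 0.315 before HCT, 0.301 to 0.476 in liver and 0.783 to 1.02 in gut. In gut the mean share of clonotypes was 1.27 times and the mean relative size 2.52 times that in liver. Replicate 2 alone spanned 0.301 to 0.476 in liver and 0.783 to 1.02 in gut, which are the full ranges of both tissues. With CDR3s that TRBV26 shared with another segment after trimming left out on both sides, the relative size was 0.197 to 0.259, 0.254 to 0.420 and 0.704 to 1.01. Rows of other segments can still hold several clonotypes with 1 CDR3, which TRBV26 rows cannot, so a ratio below 1 and this pooling cannot be told apart, and the ratio is read here between tissues only.

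**Figure D2:**
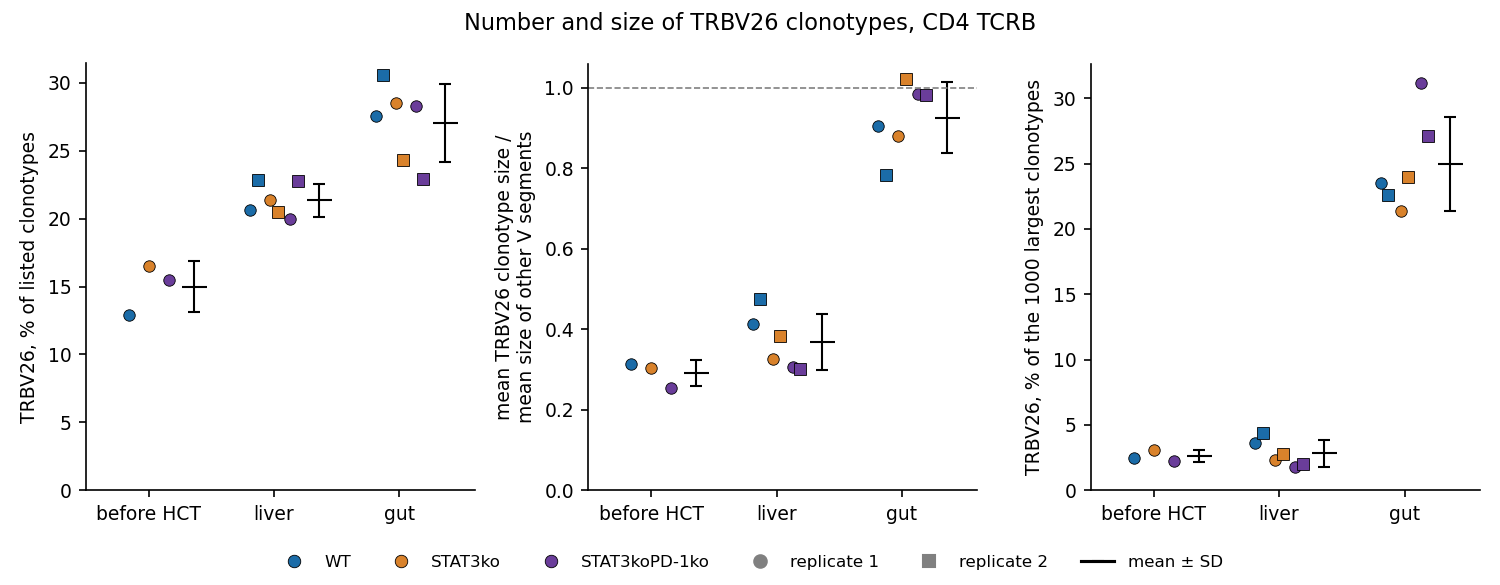
CD4 TRBV26 clonotypes per library as a percentage of all listed clonotypes (left), their mean size relative to clonotypes of other V segments (middle, dashed line at 1) and their percentage among the 1000 largest clonotypes (right), with mean ± SD beside each group. The relative size lies between 0.301 and 0.476 in liver and between 0.783 and 1.02 in gut, and the share of the 1000 largest between 1.8% and 4.4% in liver and between 21.4% and 31.2% in gut.

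The share of TRBV26 among clonotypes was compared in classes of clone frequency. Of the CD4 clonotypes above 0.01% of reads, 2.55% to 3.87% were TRBV26 before HCT, 3.19% to 5.91% in liver and 23.0% to 29.0% in gut. Between 0.001% and 0.01% the shares were 13.0% to 17.1%, 19.1% to 23.6% and 22.1% to 32.2%, and at or below 0.001% they were 18.2% to 23.5%, 25.3% to 31.1% and 18.6% to 28.9%. Before HCT and in liver the TRBV26 share of rows was therefore lowest in the class of large clonotypes, and in gut the ranges of the 3 classes overlapped. In replicate 2 alone, the share above 0.01% was 3.85% to 5.91% in liver and 23.0% to 26.6% in gut. The pooling of other segments applies to these shares as well. Among the 1000 largest clonotypes of a library, TRBV26 held 2.2% to 3.1% before HCT, 1.8% to 4.4% in liver and 21.4% to 31.2% in gut, and in replicate 2 alone 2% to 4.4% and 22.6% to 27.1%.

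**Figure D3:**
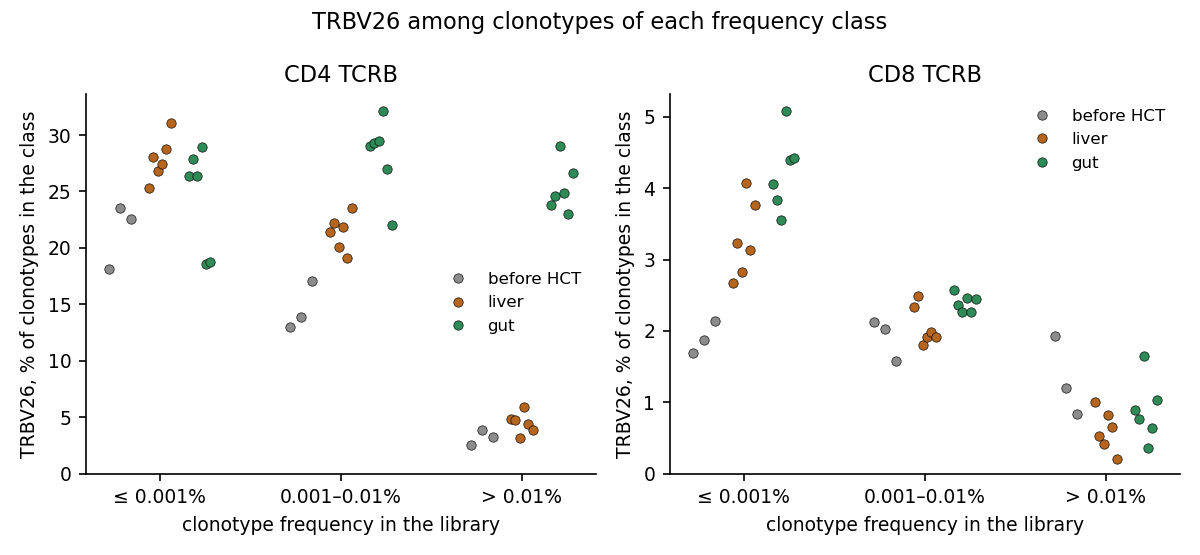
TRBV26 as a percentage of the clonotypes in 3 classes of frequency (at or below 0.001%, 0.001% to 0.01%, above 0.01% of reads), with 1 point per library, in CD4 (left) and CD8 TCRB (right). In CD4 the class above 0.01% separates gut (23.0% to 29.0%) from liver (3.19% to 5.91%), and in CD8 the share of that class is at most 1.93% in every group.

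Clonotypes above 0.01% accounted for 1.54 to 1.97 percentage points of CD4 TRBV26 usage before HCT and 1.46 to 2.01 in liver, and those at or below 0.01% for 2.75 to 3.71 and 5.62 to 10.4 points. In gut the 2 replicates differed. In gut replicate 1 from WT, STAT3ko and STAT3koPD-1ko donors, large clonotypes gave 5.82, 9.01 and 10.9 points and small ones 19.8, 16.96 and 17.2 points, so that small clonotypes gave the larger part in all 3 libraries and both classes exceeded every liver library. In gut replicate 2, large clonotypes gave 10.9, 19.7 and 19.3 points and small ones 14.7, 5.02 and 3.35 points. There the small clonotypes from STAT3ko and STAT3koPD-1ko donors gave less than in any liver library, whereas large clonotypes gave more than in any liver library from all 3 genotypes. The gut replicate 2 libraries were also those with the lowest share of reads in listed clonotypes, whose part in this was not tested.

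The usage from small clonotypes was higher in every liver library than before HCT, whereas the ranges for large clonotypes overlapped. In liver replicate 2 alone, large clonotypes gave 1.46 to 1.96 points and small ones 6.69 to 10.4 points. In CD8, TRBV26 relative size was 0.491 to 0.683 before HCT, 0.369 to 0.482 in liver and 0.327 to 0.716 in gut, and TRBV26 held 0.6% to 1.9%, 0% to 0.5% and 0.4% to 1.7% of the 1000 largest clonotypes.

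TRBV26 was not carried by a few dominant clonotypes in most libraries. The number of CD4 TRBV26 clonotypes was 1411 to 2354 before HCT, 2833 to 5479 in liver, 6015 to 8234 in gut replicate 1 and 784 to 2724 in gut replicate 2. The effective number, the exponential of the Shannon entropy of their frequencies, was 620 to 938 before HCT, 1539 to 3180 in liver and 360 to 4788 in gut. The largest clonotype held 2.70% to 3.36% of TRBV26 frequency before HCT, 0.592% to 3.06% in liver and 0.299% to 2.39% in gut, and the 10 largest held 14.1% to 16.5%, 3.39% to 7.72% and 2.28% to 13.9%. TRBV26 clonotypes above 0.1% of reads numbered 16 in gut STAT3ko replicate 2, 12 in gut STAT3koPD-1ko replicate 2 and 6 in gut STAT3koPD-1ko replicate 1, and at most 2 in any other library. Those gut replicate 2 libraries also listed the fewest TRBV26 clonotypes, 968 and 784.

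The study called a clonotype host reactive where its frequency was below 1e-05 before HCT and above 0.0001 on day 6. With these limits applied to the mean of the 3 libraries before HCT and the mean of the replicates of a tissue and genotype, TRBV26 held 25 of 607 host-reactive CD4 clonotypes in liver from WT donors (4.12%), 29 of 827 from STAT3ko (3.51%) and 22 of 868 from STAT3koPD-1ko donors (2.53%). In gut it held 121 of 465 (26.02%), 231 of 789 (29.3%) and 253 of 778 (32.5%). Of all CD4 clonotypes whose mean was above the day 6 limit, with no limit before HCT, TRBV26 held 3.701%, 2.85% and 2.11% in liver and 21.1%, 24.7% and 29.2% in gut, in the same order of genotypes, each below the share of the host-reactive clonotypes. From replicate 2 alone the host-reactive shares were 6.08%, 4.63% and 3.80% in liver, where the shares without the limit before HCT were 5.91%, 4.39% and 3.85%. In gut they were 29.3%, 27.9% and 31.4%, against 24.9%, 23.0% and 26.6%. In CD8, TRBV26 held 4 of 911 (0.439%), 6 of 1100 (0.545%) and 0 of 745 in liver, where the shares without the limit before HCT were 0.443%, 0.437% and 0%. In CD8 gut it held 2 of 611 (0.327%), 5 of 710 (0.704%) and 14 of 456 (3.07%), against 0.157%, 0.453% and 1.61%. From gut replicate 2 alone the CD8 shares were 0.600%, 1.01% and 1.77%, against 0.366%, 0.642% and 1.04%, and from liver replicate 2 alone 0.843%, 0.850% and 0.274%, against 0.821%, 0.656% and 0.208%. Each count is 1 set per genotype and tissue and was not tested between genotypes.

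Sharing of TRBV26 clonotypes between libraries was counted next, beside that of the clonotypes of other V segments, which numbered 67950 in CD4 and 80026 in CD8 after trimming and which pool V segments by CDR3. Of 17801 merged CD4 TRBV26 clonotypes, 11 were listed in all 15 libraries (0.0618%, against 0.0721% of other segments) and 32 in all 12 day 6 libraries (0.180%, against 0.0957%). In all gut libraries there were 61 (0.343%, against 0.182%), and in all liver libraries 135 (0.758%, against 0.499%). A larger share of TRBV26 than of other clonotypes was thus listed in every library of gut or of liver, and a similar share in all 15. The segment was chosen on its usage in these libraries, so these shares are not independent of that choice.

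Those seen in any library before HCT were 4993 (28.0%, against 41.4% of other segments). Among clonotypes listed in a day 6 replicate 2 library, the shares seen before HCT were 20.3% (2327 of 11472) and 24.0%, so that the gap was narrower there. TRBV26 clonotypes in gut and not in liver were 2563 (14.4%, against 9.42%), and those in liver and not in gut 1994 (11.2%, against 29.2%). Usage in gut, in liver and before HCT was what the segment was chosen on, so these gaps to other segments are not independent of that choice.

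In CD8, 0 of 2413 TRBV26 clonotypes were in all 15 libraries, against 189 of other segments (0.236%). In all gut libraries there were 7 (0.290%, against 1.06%), 4 of which were at 0 in every library before HCT, and in all liver libraries 2 (0.0829%, against 0.616%). Those seen before HCT were 22.4%, against 35.2%, and among clonotypes of day 6 replicate 2 the shares were 8.77% and 21.4%. In CD8, TRBV26 clonotypes were thus listed less widely than those of other segments by each of these counts. Wider listing goes with higher frequency and with pooling of V segments, whose part in these counts was not tested.

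The CD4 clonotypes with the highest day 6 means among those in at least 10 of 12 libraries are given next. The choice used the mean over gut and liver, to which gut libraries with their higher TRBV26 usage gave more, so a higher level in gut follows in large part from the choice. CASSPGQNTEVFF with TRBJ1-1 was at 0.00775%, 0.00515% and 0.0139% of reads before HCT from WT, STAT3ko and STAT3koPD-1ko donors. In liver its lowest, median and highest values were 0.00101%, 0.0164% and 0.0343%, and in gut 0.0296%, 0.0659% and 0.171%. Gut and liver libraries overlapped for this clonotype, with the highest values in gut STAT3ko and STAT3koPD-1ko replicate 2. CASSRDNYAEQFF with TRBJ2-1 had 0.00272%, 0.0112% and 0.0161% in liver and 0.0113%, 0.05% and 0.199% in gut, and was at 0 in 1 library before HCT. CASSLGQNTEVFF with TRBJ1-1 had medians of 0.0137% in liver and 0.0423% in gut, and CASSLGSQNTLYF with TRBJ2-4 of 0.00625% and 0.0260%. The fifth, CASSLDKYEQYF with TRBJ2-7, was in 11 of 12 libraries, with medians of 0.00538% and 0.00991%. For all 5 the ranges of liver and gut overlapped.

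A further 3 clonotypes were chosen for the highest frequency in any 1 CD4 library, so their peak in 1 pool is fixed by that choice. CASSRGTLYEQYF with TRBJ2-7 reached 0.547% in gut STAT3koPD-1ko replicate 1 and was otherwise listed only in liver STAT3koPD-1ko replicate 1, at 0.00453%. The same bases from the cysteine on, with TRBJ2-7, were also listed under TRBV22, at 0.0173% in that gut library. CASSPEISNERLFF with TRBJ1-4 reached 0.257% in gut STAT3ko replicate 2 and at most 0.00937% in 6 other day 6 libraries, both of liver and of gut. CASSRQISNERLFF, also with TRBJ1-4, reached 0.241% in gut STAT3koPD-1ko replicate 2 and 0.0597% in the library before HCT of that genotype, and was listed in 8 other day 6 libraries at 0.012% or less. The first was thus nearly private to 1 pool, and the other 2 were listed in most day 6 libraries at low frequency.

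In CD8 the clonotypes were likewise chosen for the highest day 6 mean, which single gut libraries dominated, so that their high level in gut follows from the choice. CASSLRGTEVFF with TRBJ1-1 was listed in all 6 gut libraries, from 0.000699% to 0.104% (median 0.00378%), in 1 liver library at 0.000401% and in none before HCT. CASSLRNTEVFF with TRBJ1-1 reached 0.0725% in gut STAT3koPD-1ko replicate 1, and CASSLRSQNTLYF with TRBJ2-4 0.0518% in gut STAT3koPD-1ko replicate 2. These 3 shared the start CASSLR. CASSL starts held 56.4% ± 5.07 (SD, n = 12) of CD8 TRBV26 frequency on day 6, and the share of CASSLR among all of them was not counted, so no motif is read from these 3.

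TRBV26 clonotypes of the CD8 table were often also listed in the CD4 table. By V segment, CDR3 and J segment, 1005 of 2415 (41.6%) were found there, against 6.59% of CD8 clonotypes of other segments. By the listed CDR3 alone the shares were 42.0% (1015) and 21.1% (16926 of 80032). These keys do not treat TRBV26 and other segments alike: the first loses matches of other segments whose V name differs between the tables, and under the second a CDR3 of another segment can match any V segment, whereas a TRBV26 CDR3 with its upstream residues can match TRBV26 rows only. The difference between TRBV26 and other segments therefore cannot be told apart from the key.

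Clonotypes listed in the CD4 library of the same label, by V segment, CDR3 and J segment, made up 11.1% to 18.01% of CD8 TRBV26 frequency before HCT, 15.4% to 26.6% in liver and 17.8% to 34.2% in gut, against 5.34% to 7.88%, 2.81% to 6.67% and 3.21% to 7.42% of the frequency of other segments. By CDR3 alone, TRBV26 was at 11.1% to 18.01%, 15.9% to 26.6% and 18.5% to 34.3%, and other segments at 18.4% to 23.4%, 11.3% to 20.8% and 15.4% to 25.9%. The order of TRBV26 and other segments before HCT thus turned with the key. In CD4 libraries of the same tissue and replicate number but another genotype, as the mean of the 2 such libraries, the first key found 4.38% to 13.8% of CD8 TRBV26 frequency before HCT, 13.2% to 21.7% in liver and 14.03% to 43.1% in gut. The day 6 means were 18.6% in liver and 28.6% in gut, against 19.1% and 27.1% for the matching label. The gut means join genotypes that went opposite ways. With WT donors the matching label gave 33.2%, against 21.2% for other genotypes, with STAT3ko 24.9% against 27.0%, and with STAT3koPD-1ko 23.2% against 37.6%. The CD4 libraries differed in their number of TRBV26 clonotypes, whose part in this was not tested. CD8 usage from TRBV26 clonotypes at 0 in the matching CD4 library, by V segment, CDR3 and J segment, was 0.633% to 1.14%, 0.690% to 0.921% and 0.676% to 1.44%. Purity of the sort was not tested.

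The J segments joined to TRBV26 were compared next, as shares of TRBV26 frequency, so that the level of usage cancels. In CD4 the 3 with the highest day 6 mean were TRBJ2-7 (14.7%), TRBJ1-1 (14.1%) and TRBJ1-3 (10.4%). TRBJ1-1 was at 10.1% ± 0.134 before HCT, 13.1% ± 1.45 in liver and 15.1% ± 1.07 in gut, and all 12 day 6 libraries lay above the 3 before HCT. Replicate 2 alone was at 14.4% ± 0.185 (n = 3) in liver and 15.9% ± 0.755 (n = 3) in gut. TRBJ2-7 was at 16.9% ± 1.85, 15.3% ± 1.27 and 14.1% ± 1.16, with overlapping ranges. TRBJ1-3 was at 9.90% ± 0.437, 9.91% ± 1.04 and 10.9% ± 0.491, and other V segments as a whole used it less, at 5.56% ± 0.549, 5.75% ± 0.448 and 6.63% ± 0.600. No TRBV26 range of this segment met that of the other segments in the same tissue.

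Between gut and liver, 0 of 238 V-J pairs of CD4 were called (0%; limma on log2 of the percent share plus 0.5, adjusted p below 0.05), 16 had an unadjusted p below 0.05, and 0 of these were among the 11 TRBV26 pairs. TRBJ1-1 differed by 0.21 (SE 0.13, interval −0.08 to 0.50, limma adjusted p = 0.583) and TRBJ2-4 by −0.24 (SE 0.13, interval −0.53 to 0.05, limma adjusted p = 0.583). The median absolute difference of the TRBV26 pairs was 0.11, and that of all pairs 0.24. No J share of CD4 TRBV26 was thus called between tissues in which its usage was 2.80-fold apart, although the intervals of these 2 pairs reached 0.50 and −0.53. CD4 TRBV26 shares rest on 784 to 8234 clonotypes per day 6 library. The part of clonotype number in the smaller median was not tested.

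**Figure D4:**
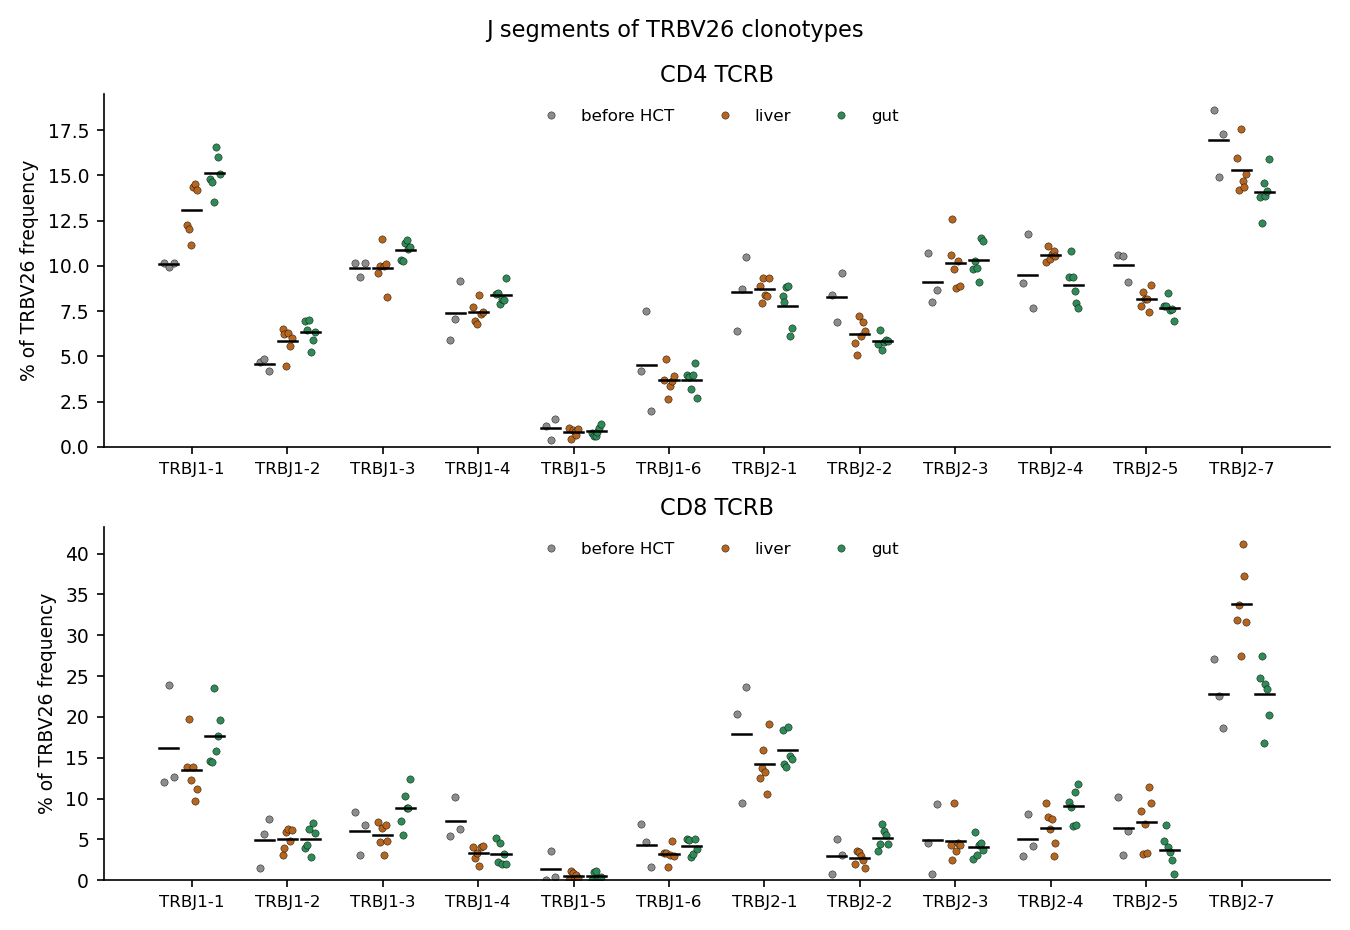
Share of each J segment in TRBV26 frequency, in CD4 (top) and CD8 TCRB (bottom), with 1 point per library, bars at the group means and axes that start at 0. CD4 shares of gut and liver overlap for TRBJ1-1 (11.1% to 14.5% in liver, 13.5% to 16.6% in gut), and CD8 TRBJ2-7 spans 27.4% to 41.2% in liver and 16.8% to 27.4% in gut.

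In CD8, TRBJ2-7 was the most used J segment of TRBV26 (day 6 mean 28.3%), followed by TRBJ1-1 (15.5%) and TRBJ2-1 (15.04%). TRBJ2-7 was at 22.8% ± 4.25 before HCT, ranged from 27.4% over a median of 32.7% to 41.2% in liver, and from 16.8% over 23.7% to 27.4% in gut. Other segments as a whole were at 26.3%, 25.6% and 25.5%. Gut minus liver was −0.56 (SE 0.13, interval −0.84 to −0.29), and it did not pass adjustment (limma adjusted p = 0.0930). No pair of the 210 was called (0%), 11 had an unadjusted p below 0.05 in limma, and 4 of these were among the 11 TRBV26 pairs, namely TRBJ2-7 and, higher in gut, TRBJ2-2 (0.84, limma adjusted p = 0.137), TRBJ1-3 (0.65, limma adjusted p = 0.462) and TRBJ2-4 (0.53, limma adjusted p = 0.654). The median absolute difference was 0.39 for TRBV26 and 0.16 for all pairs. CD8 TRBV26 shares rest on 212 to 763 clonotypes per day 6 library.

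Genotype changed no J share of TRBV26 past the threshold. In CD4, 0 of 238 pairs were called in each contrast (0%), with 16, 15 and 13 at an unadjusted p below 0.05 in limma for STAT3ko minus WT, STAT3koPD-1ko minus STAT3ko and STAT3koPD-1ko minus WT, of which 0, 1 and 0 were TRBV26 pairs. In CD8, 1 (0.476%), 0 (0%) and 0 (0%) of 210 were called, none of them with TRBV26, and 0, 2 and 2 TRBV26 pairs were among the 12, 20 and 21 at an unadjusted p below 0.05.

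The CDR3 of TRBV26 was of nearly the same length in every group. The frequency-weighted mean from the last cysteine was 13.45 to 13.53 residues before HCT, 13.53 to 13.60 in liver and 13.33 to 13.57 in gut in CD4. From WT, STAT3ko and STAT3koPD-1ko donors it was 13.57, 13.56 and 13.48 in gut replicate 1. In gut replicate 2 it was 13.44, 13.33 and 13.42, below every liver library, and there the clonotypes of other segments were at 13.28, 13.25 and 13.29. Gut minus liver was −0.10 residues (SE 0.06, interval −0.23 to 0.03, limma adjusted p = 0.283), with 1 of 21 V segments called (4.76%), which was not TRBV26. In CD8 the means were 13.08 to 13.63, 13.22 to 13.52 and 13.48 to 13.62 residues, and the difference was 0.11 (SE 0.07, interval −0.04 to 0.26, limma adjusted p = 0.304), with 0 of 18 called (0%; 3 at an unadjusted p below 0.05 in limma). CDR3s of 13 and 14 residues together were the most frequent, at 32.4% ± 2.08 and 36.6% ± 1.14 of TRBV26 frequency in CD4 gut.

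**Figure D5:**
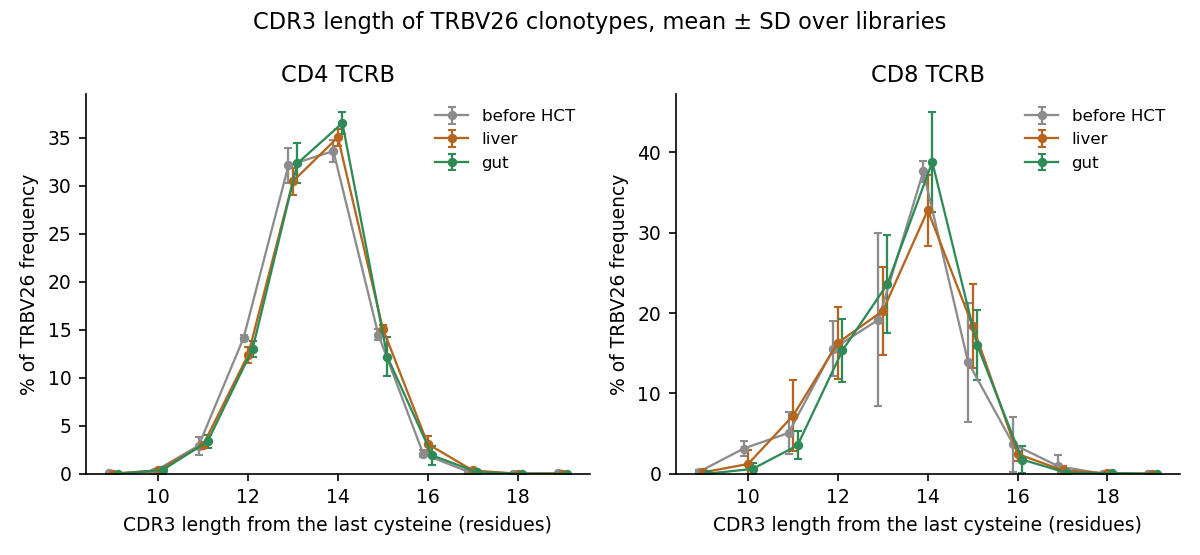
CDR3 length of TRBV26 clonotypes counted from the last cysteine (residues) against the percentage of TRBV26 frequency, as mean ± SD over libraries, in CD4 (left) and CD8 TCRB (right). The peak is at 14 residues in every group, with 33.6% before HCT, 35.1% in liver and 36.6% in gut in CD4, and the SDs are wider in CD8.

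The residues after the shared CASS were mostly leucine, proline or arginine. CASSL, which the germline bases encode, made up 48.7% ± 3.35 of CD4 TRBV26 frequency before HCT, 50.5% ± 1.65 in liver and 51.3% ± 3.89 in gut. CASSP was at 14.3% ± 2.00, 15.6% ± 1.196 and 16.6% ± 1.52. CASSR was at 12.4% ± 1.48, 13.6% ± 0.769 and 16.6% ± 1.48, with ranges of 12.95% to 15.02% in liver and 14.4% to 18.6% in gut, which overlapped, and replicate 2 alone was at 13.3% ± 0.374 and 17.5% ± 1.03. In CD8, CASSR was at 6.73% ± 2.76, 6.54% ± 1.85 and 8.999% ± 2.30. These starts were described with no test.

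The usage of TRBV26 was set beside that of other segments that BALB/c mice are known to delete, TRBV12-1 and TRBV12-2 (V beta 5), TRBV16 (V beta 11) and TRBV15 (V beta 12). In CD4, TRBV12-2 was at 1.05% ± 0.255 before HCT, 1.24% ± 0.167 in liver and 2.01% ± 0.316 in gut, and TRBV12-1 at 0.903% ± 0.175, 1.04% ± 0.180 and 1.49% ± 0.235. TRBV15 was at 5.49% ± 0.918, 5.71% ± 0.735 and 5.80% ± 0.826, and TRBV16 at 17.3% ± 1.05, 15.4% ± 0.869 and 11.4% ± 2.44. The means of TRBV12-1 and TRBV12-2 were thus higher in gut than in liver, like that of TRBV26, while that of TRBV16 was lower and that of TRBV15 similar. Whether deletion in the host strain has a part in any of these levels was not tested. The pattern most like that of TRBV26 over the 12 day 6 libraries was that of TRBV23, at 1.87% ± 0.293, 3.703% ± 0.750 and 10.6% ± 2.39, with a Pearson r of 0.93 of log2 usage. TRBV12-2 (0.87) and TRBV12-1 (0.76) followed. All 3 values mainly reflect the gap between tissues, as TRBV23 had an r of 0.43 within the 6 liver and −0.12 within the 6 gut libraries, and usages of 1 library share a total.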

How the data were processed

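TCRB libraries had been made from RNA of sorted cells with a SMARTer mouse TCR kit. Per the study's methods, the authors aligned paired reads with MiXCR and joined the libraries by CDR3 with VDJtools. The deposited values are the fraction of a library's reads for each clonotype, which carry no counts, and 0 library columns were left unmapped. Labels name mm10 as the build. The 2 TCRA tables were not used here.

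Alleles were dropped from V names. Usage was the sum over TRBV26 rows divided by the column total. Genotype, interaction, J share and CDR3 length were fitted with limma 3.58.1 (R 4.3.3) over all V segments whose mean usage was 0.5% or more, or all V-J pairs with a mean share of at least 1%, on the 12 day 6 libraries of a table, with Benjamini-Hochberg adjustment and a threshold of 0.05. The fits were tested on simulated data. Sums used pandas 2.3.3 (Python 3.11.15). Named J segments were the 3 with the highest day 6 mean within TRBV26 and any called. Named clonotypes were the 5 with the highest day 6 mean in at least 10 of 12 CD4 libraries, the 3 with the highest single CD4 value, and the 3 with the highest mean in at least 6 CD8 libraries. The 3 V segments most like TRBV26 were named by Pearson r. The members and lists were chosen with earlier results of these data known. Alternatives were the pseudocount, the filter, division by the listed total, each library left out, each replicate alone, a replicate block, shares of clonotypes and untrimmed CDR3s. Germline sequence came from GRCm38 with GENCODE and RefSeq annotation.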

Additional observations from a re-analysis of the deposited data

Results flagged for a closer look

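In CD4 liver, the largest TRBV26 clonotype of STAT3ko replicate 1 held 3.06% of that library's TRBV26 frequency, while the other 5 liver libraries had 0.592% to 1.28%. The gap to the nearest library was 0.722 of the whole range, which exceeded the critical value of Dixon's test for 6 libraries. It was the 1 value flagged among 40 groups tested. Chance alone gives about 1 in 20, so 1 in 40 is no more than chance gives.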

How the results depend on the processing

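Across 27 results and 486 alternative fits, 475 kept direction and side of the threshold, 11 changed sign and 0 crossed the threshold. The sign changes were of 2 results near 0. STAT3koPD-1ko minus WT in CD8 usage (0.03) was −0.0292 when usage was not divided by the listed total and −0.00837 with replicate 1 alone, and −0.132 to 0.121 with 1 library left out, negative without gut STAT3koPD-1ko replicate 1 and without gut WT replicate 2. The CD4 upstream share, gut minus liver, was −0.00233 to 0.00517 percentage points with 1 library left out, but the share was near 100% in every library, so nothing is read from it. The cause was not tested. For CD8 TRBJ2-7, the gut minus liver difference ranged from −0.685 to −0.200 over the alternatives, and limma adjusted p from 0.0804 to 0.780. With clonotypes of the matching CD4 library left out, chosen after seeing the data, the difference was −0.60. No row held a stop codon or frameshift, so that alternative changed nothing. Replicate numbers did not meet the rule for pairing, since not every correlation of the replicate differences in usage was above 0.1: between tissues these were −0.446 to 0.176 in CD4 and −0.0936 to 0.303 in CD8, within liver −0.294 to 0.231 and −0.167 to 0.338, but within gut 0.358 to 0.502 and 0.506 to 0.866, so that gut libraries of 1 number deviated together. With the replicate block CD4 STAT3ko minus WT was −0.18 (limma adjusted p = 0.739), with no call gained or lost in any result. Counting host-reactive clonotypes and clonotypes seen before HCT from replicate 2 alone was also chosen after seeing the data. The study names 2 batches that the labels do not tie to samples, so batch was not tested. Frequencies without counts give no interval for single clonotypes, and a clonotype at 0 may lie below the unknown depth.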
